A study of Rattus norvegicus with 6 samples.

Results

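The endoplasmic reticulum (ER) stress and integrated stress response genes were followed in liver RNA of male Sprague-Dawley rats given tris(2-chloroethyl) phosphate (TCEP) or corn oil. The set held 32 named genes in 2 arms: 14 genes of the ATF4 arm (the transcription factor, its partners and its targets) and 18 genes of the ER chaperone arm (chaperones, folding enzymes and the genes of ER quality control). A gene was taken when the RefSeq transcript named for a non-control probe belonged to its symbol, and it was represented by its brightest probe. In all, 30 of the 32 genes had a probe, out of 27642 gene names tested, and all 30 were well above background on every array. Of the 27642 names 10982 were symbols, and the others were the array's own sequence names without a matched symbol. Values given for all genes refer to all these names, so a gene may count more than once among them. Manf and Edem1 were not analysed here. The membership rule itself uses no measured value, but the members were chosen with earlier results of these data known.

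The TCEP group held 3 animals dosed at 400 mg/kg/day and the corn oil group held 3 animals given the vehicle. TCEP is a chlorinated organophosphate used as a flame retardant. All animals were males bought at 5 weeks of age and kept on a basal diet. The labels give 9 weeks of dosing, whereas the design text speaks of a measurement at 28 days, and this disagreement could not be settled from the sources used here. Each animal gave 1 one-colour Agilent array, so the number of arrays limits the precision.

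Values are log2 signals relative to the 75th percentile of the same array, and a difference is TCEP minus corn oil on that log2 scale with its standard error (SE). Of the 61657 non-control probes, the share well above background ran from 57.2% on the array of corn oil replicate 2 to 64.4% on that of TCEP replicate 1. All TCEP arrays lay on 1 slide, and the corn oil arrays lay on 2 others, so slide and treatment cannot be told apart. Corn oil replicate 2 lay on a slide of its own and was scanned 23 days after the others. The tissue label was checked with 10 hepatocyte genes, including Alb and Apoa1. All 10 were well above background on every array, but so were all 10 stellate cell genes. The summed signal of the hepatocyte genes, relative to the 75th percentile, was 6020 to 6630 in TCEP livers and 6600 to 6920 in corn oil livers. For the stellate cell genes it was 28.7 to 29.9 and 29.8 to 31.7.

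The unfolded protein response is started by 3 sensors in the ER membrane, PERK, IRE1 and ATF6. ATF6 and the spliced form of XBP1 raise chaperones and folding enzymes, which bind and fold new secretory proteins. PERK phosphorylates eIF2alpha, as do GCN2, HRI and PKR outside the ER, which lowers general translation while the translation of ATF4 goes up. ATF4 then turns on genes of amino acid synthesis, transport and stress signalling, so its arm can respond to amino acid shortage or mitochondrial stress without any load on the ER. Hepatocytes secrete most plasma proteins and hold a large ER. Transcript levels do not report eIF2alpha phosphorylation, ATF4 protein or the splicing of Xbp1.

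The promoters of both arms were searched for the elements through which the arms are known to be driven, shown here because the arms are compared throughout. Promoter windows of 300 bases (250 before to 50 after the start, RefSeq, build GRCr8) were found for 28 of the 32 genes. The ER stress element ERSE, searched as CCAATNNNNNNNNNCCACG on both strands, was in 7 of 15 ER arm windows and 0 of 13 ATF4 arm windows, against 0.0657% of all 33469 windows. The shorter ERSE-II, searched as ATTGGNCCACG on both strands, was in 3 of 15 ER arm windows and 0 of 13 ATF4 arm windows, against 0.0508% of all windows. The core of the CEBP-ATF response element, searched as TGATGNAA on both strands, was in 4 of 13 ATF4 arm windows and in 1 of 15 ER arm windows, against 3.98% of all windows. No match overlapped another motif. A match describes these letters only, and factor binding was not measured.

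The following stretches run 5′ to 3′ on the strand of the gene, with the match in capitals. Where the reverse complement of the spelled motif matched, the capitals show that complement. Hspa5, Xbp1, Dnajc3 and Calr carry ERSE, and Hyou1 and Herpud1 carry ERSE-II.
Hspa5 (chr3:38452961-38453003, plus strand): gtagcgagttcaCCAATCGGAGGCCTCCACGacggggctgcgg
Xbp1 (chr14:84604546-84604588, plus strand): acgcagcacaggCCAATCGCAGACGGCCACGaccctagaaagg
Dnajc3 (chr15:102432522-102432564, plus strand): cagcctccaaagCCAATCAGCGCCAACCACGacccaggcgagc
Calr (chr19:40213123-40213165, plus strand): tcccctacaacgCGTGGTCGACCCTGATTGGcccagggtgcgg
Hyou1 (chr8:53602782-53602816, plus strand): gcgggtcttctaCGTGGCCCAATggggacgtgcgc
Herpud1 (chr19:10614809-10614843, minus strand): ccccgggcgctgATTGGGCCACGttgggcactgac

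The ATF4 arm genes with the CEBP-ATF core were Trib3, Chac1, Nupr1 and Fgf21, and in all 4 the reverse complement matched.
Trib3 (chr3:161275535-161275566, minus strand): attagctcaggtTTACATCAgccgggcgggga
Chac1 (chr3:126795952-126795983, plus strand): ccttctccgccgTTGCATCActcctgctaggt
Nupr1 (chr1:190645937-190645968, minus strand): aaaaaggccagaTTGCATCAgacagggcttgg
Fgf21 (chr1:105221500-105221531, minus strand): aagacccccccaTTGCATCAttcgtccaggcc

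No gene of either arm passed the test. By limma with Benjamini-Hochberg adjustment over all genes, 0 of 30 members had an adjusted p under 0.05, and so did 0.0% of the 27642 genes, among which 0.291 was the lowest. Without adjustment, at a p under 0.05, 0 of 30 members were higher and 0 were lower, against 5.01% of all genes higher and 4.19% lower. In 1 of 30 members, Asns, every TCEP animal was above every corn oil animal, against 10.3% of all genes, and in 0 of 30 every TCEP animal was below, against 7.06%. The median difference of the members was 0.02, beside 0.00 over all genes, and 17 of 30 means were higher in TCEP.

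**Figure D1:**
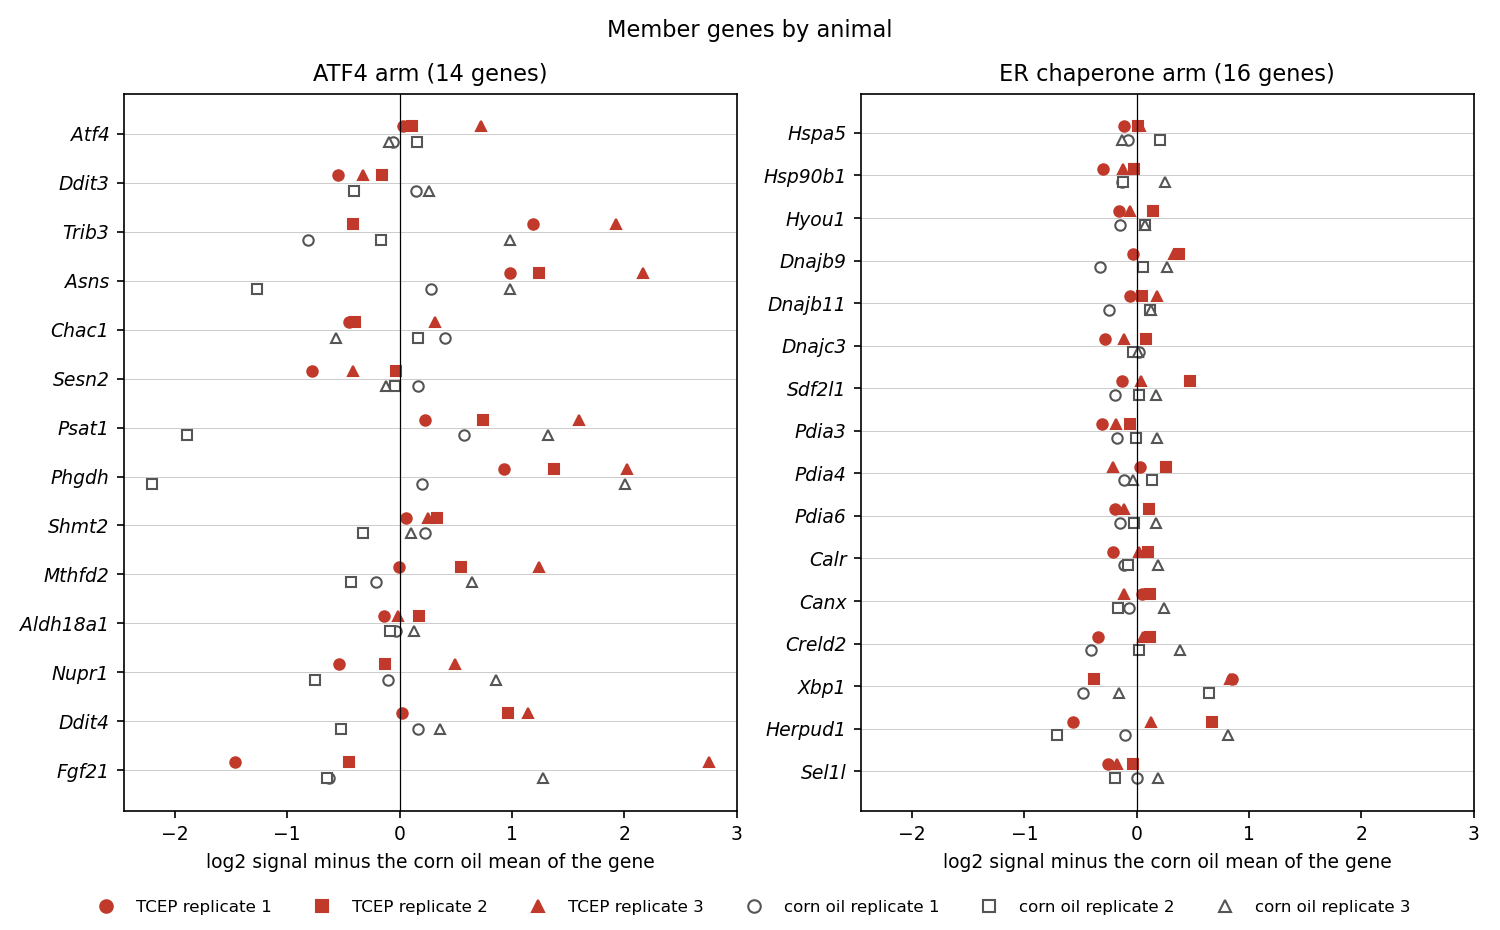
Each point is 1 animal's log2 signal of a gene minus the corn oil mean of that gene, with TCEP filled and above corn oil open, for the 14 measured genes of the ATF4 arm and the 16 of the ER chaperone arm. The ATF4 arm spreads widely within both groups, whereas most ER arm genes lie close to 0 in all 6 animals.

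In the ATF4 arm the animals of each group lay far apart. Its median difference was 0.28, with 10 of 14 means higher in TCEP and a range from -0.41 (Sesn2) to 1.46 (Asns). Under other scalings its median was 0.22 to 0.38. The median SD of its genes was 0.54 in TCEP livers and 0.54 in corn oil livers, against 0.14 in TCEP and 0.19 in corn oil over all genes. TCEP replicate 3 was the highest array for 8 of the 14 genes (57.1%, against 20.7% of all genes). Corn oil replicate 2 was the lowest for 7 of them (50%, against 21.1%).

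Atf4, the transcription factor of the arm, was at 5.41, 5.49 and 6.11 in TCEP livers, against 5.32, 5.54 and 5.29 in corn oil livers. The groups overlapped, and only TCEP replicate 3 stood above the rest. The difference was 0.29 ± 0.21 (SE), with a 95% interval from -0.21 to 0.79 and an adjusted p of 0.687 in limma. Without TCEP replicate 3 it was 0.07, and without TCEP replicate 1 it was 0.42. Ddit3 encodes CHOP, a factor downstream of ATF4 that can promote cell death. It was at 2.54, 2.93 and 2.76 in TCEP livers, against 3.23, 2.68 and 3.35 in corn oil livers, a difference of -0.34 ± 0.20. Corn oil replicate 2 lay among the TCEP values, and both probes of Ddit3 gave -0.34. Without that animal the Ddit3 difference was -0.55, and without corn oil replicate 3 it was -0.21.

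The feedback and signalling genes of the arm differed in both directions. Trib3, a pseudokinase induced by ATF4 and CHOP that restrains both, was at 1.45, -0.15 and 2.19 in TCEP livers, against -0.55, 0.10 and 1.25 in corn oil livers, a difference of 0.90 ± 0.70. TCEP replicate 2 lay among the corn oil animals. With 1 array left out the Trib3 difference ran from 0.39 (without TCEP replicate 3) to 1.55 (without TCEP replicate 2). Chac1, which degrades glutathione, had a difference of -0.18 ± 0.32. Sesn2, a leucine sensor and restrainer of mTORC1, had the lowest difference of the set, at -1.58, -0.83 and -1.21 in TCEP livers against -0.63, -0.84 and -0.92 in corn oil livers. Its difference was -0.41 ± 0.20 (adjusted p = 0.587, limma), and TCEP replicate 2 overlapped the corn oil values. Ddit4, another restrainer of mTORC1, was at 0.16, 1.11 and 1.29 in TCEP livers, against 0.31, -0.38 and 0.50 in corn oil livers, a difference of 0.71 ± 0.36. The groups overlapped through TCEP replicate 1, and the 3 probes of Ddit4 gave 0.71 to 0.89. Those at 0.87 and 0.89 were well above background on 3 TCEP arrays but on only 2 corn oil arrays, so they passed the filter through the TCEP group. For the brightest probe, leaving out corn oil replicate 2 gave 0.45, and leaving out TCEP replicate 1 gave 1.06. Nupr1, a stress-induced chromatin protein, had a difference of -0.06 ± 0.45.

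Asns, the asparagine synthetase and a classical ATF4 target, had the largest difference. It was at 1.72, 1.98 and 2.90 in TCEP livers, against 1.02, -0.53 and 1.72 in corn oil livers. The lowest TCEP animal was above the highest corn oil animal by only 0.001, and corn oil replicate 2 was far below the others. The difference of 1.46 ± 0.61, or 2.75-fold, had an unadjusted p of 0.0524 and an adjusted p of 0.542 in limma, with a 95% interval from -0.02 to 2.94. With 1 array left out the Asns difference ran from 0.83 (without corn oil replicate 2) to 1.95 (without corn oil replicate 3). After normexp background correction it was 1.33, with an unadjusted p of 0.0421 and an adjusted p of 0.452 in limma, and the groups overlapped.

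Corn oil replicate 2 was also low in the serine and one-carbon enzymes. Phgdh, the first enzyme of serine synthesis, was at 3.91, 4.35 and 5.00 in TCEP livers, against 3.18, 0.77 and 4.98 in corn oil livers, a difference of 1.44 ± 1.01. Psat1, the next enzyme, was at 1.00, 1.52 and 2.37 in TCEP livers, against 1.35, -1.12 and 2.10 in corn oil livers, a difference of 0.85 ± 0.85. In both genes corn oil replicate 2 was far below every other animal, and corn oil replicate 3 was close to the highest TCEP animal. Without corn oil replicate 2 the difference was 0.34 for Phgdh and -0.10 for Psat1. Without corn oil replicate 3 it was 2.45 for Phgdh and 1.51 for Psat1. Mthfd2, a mitochondrial folate enzyme, was at -1.0, -0.44 and 0.25 in TCEP livers, against -1.20, -1.42 and -0.35 in corn oil livers, a difference of 0.60 ± 0.40. The groups overlapped. Its 5 probes gave 0.55 to 1.02, but those at 1.02, 0.61 and 0.55 passed the background filter through the TCEP group only. They were well above background on 3 TCEP arrays each, but on 1, 2 and 2 corn oil arrays. The probes well above background on every array gave 0.60 and 0.59. The Mthfd2 difference ran from 0.27 without TCEP replicate 3 to 0.92 without corn oil replicate 3. Shmt2, the mitochondrial serine hydroxymethyltransferase, differed by 0.22 ± 0.17, and Aldh18a1, an enzyme of proline synthesis, by 0.01 ± 0.12.

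Fgf21, a hormone that the liver secretes under nutrient stress, had the largest standard error of the set. It was at 0.15, 1.17 and 4.37 in TCEP livers, against 0.99, 0.97 and 2.89 in corn oil livers. Replicate 3 of each group was high and the remaining 4 animals were low, and the lowest and the highest animal were both in the TCEP group. The difference was 0.28 ± 1.14, and its 95% interval ran from -2.49 to 3.05, so that these arrays bound the effect on Fgf21 only loosely. Without TCEP replicate 3 it was -0.96, and without TCEP replicate 1 it was 1.15.

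**Figure D2:**
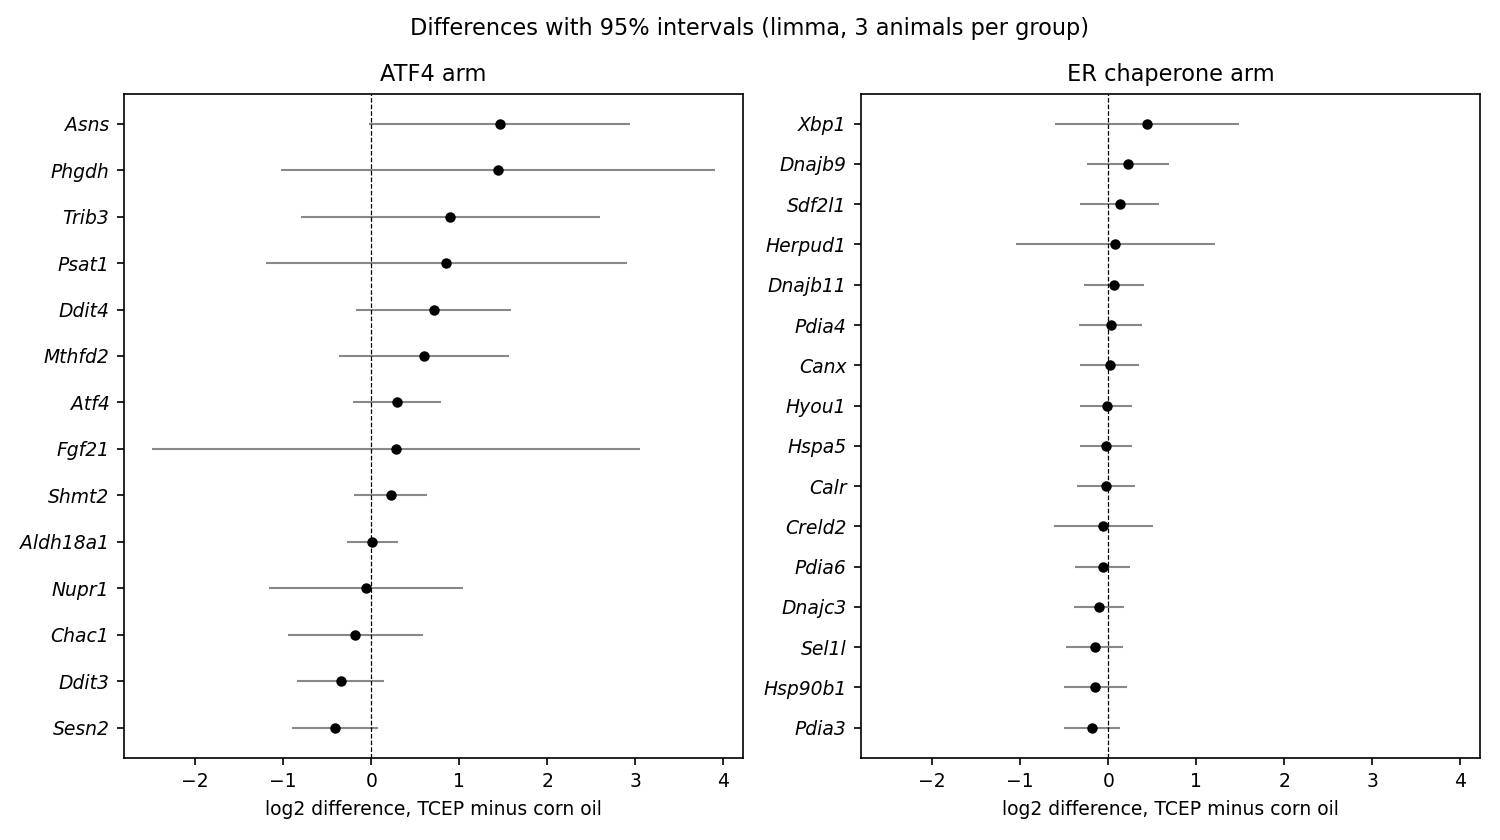
Points give the log2 difference, TCEP minus corn oil, and bars its 95% interval from limma with 3 animals per group, by arm and ordered by size. All 30 intervals include 0, and those of the ATF4 arm reach from -2.49 (Fgf21) to 3.90 (Phgdh).

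In the ER chaperone arm the levels in TCEP and corn oil livers lay close together. The median difference was -0.03, with 7 of 16 means higher in TCEP, and the median size of a difference regardless of sign was 0.07, beside 0.14 over all genes. Its direction flipped with the scaling, with medians from -0.08 to 0.03 and 5 to 11 means higher. The median SD was 0.16 in TCEP livers and 0.19 in corn oil livers. Corn oil replicate 3 was the highest array for 8 of the 16 genes (50%, against 18.7% of all genes), and TCEP replicate 1 the lowest for 7 (43.8%, against 14.9%).

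Hspa5 encodes BiP, the main Hsp70 chaperone of the ER and the usual readout of its stress response. It was at 6.56, 6.68 and 6.70 in TCEP livers, against 6.59, 6.88 and 6.54 in corn oil livers, so the TCEP values lay within the corn oil range. The difference was -0.03 ± 0.12, and its 95% interval allowed a fold change between 0.801 and 1.20. For the 13 measured chaperones and folding enzymes the differences ran from -0.19 to 0.22, that is from 0.879-fold to 1.17-fold. The widest intervals were those of Creld2, which reached down to 0.649-fold, and Dnajb9, which reached up to 1.61-fold, and the others were tighter.

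Among the other chaperones, Hsp90b1 (GRP94, the Hsp90 of the ER) differed by -0.15 ± 0.15 (-0.34 by its dimmer probe) and Hyou1 (GRP170, a nucleotide exchange factor of BiP) by -0.02 ± 0.12. The J-proteins that direct BiP to its clients were close to the corn oil level too. Dnajb9 differed by 0.22 ± 0.19, Dnajb11 by 0.06 ± 0.14 and Dnajc3, which also inhibits PERK, by -0.11 ± 0.12. Sdf2l1, a partner of Dnajb11, differed by 0.13 ± 0.18. The disulfide isomerases Pdia3, Pdia4 and Pdia6 differed by -0.19 ± 0.13, 0.03 ± 0.15 and -0.06 ± 0.13. The lectin chaperones Calr and Canx, which hold glycoproteins during folding, differed by -0.03 ± 0.13 and 0.02 ± 0.14, and Creld2, an ER-stress-induced folding factor, by -0.06 ± 0.23. Of the 8 ER arm genes with several probes, those of Dnajb11, Sdf2l1 and Canx disagreed in sign, all around 0.

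Xbp1 and Herpud1 varied more than the other ER arm genes. Xbp1, the factor spliced by IRE1, was at 5.26, 4.03 and 5.24 in TCEP livers, against 3.93, 5.05 and 4.25 in corn oil livers. Each group held both high and low animals, and the difference was 0.44 ± 0.43. Without TCEP replicate 2 it was 0.85, and without corn oil replicate 1 it was 0.20. Plasma cells also express Xbp1, and the summed signal of the 6 other plasma and B cell genes with a probe, relative to the 75th percentile, was 1.91, 2.43 and 3.51 in TCEP livers, against 1.53, 1.52 and 2.32 in corn oil livers. Derl3, which is also a gene of ER-associated degradation, made up most of that sum on every array but that of corn oil replicate 1. Without Derl3 the sum of the 5 remaining genes was 0.662, 1.02 and 1.46 in TCEP livers, against 0.878, 0.695 and 0.379 in corn oil livers. The part of plasma cells in the Xbp1 levels was not tested. In bulk liver, fewer cells of a type and less RNA per cell cannot be told apart.

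Herpud1, a membrane protein of ER-associated degradation, carries both ERSE-II and the CEBP-ATF core in its promoter window. It was at 4.79, 6.03 and 5.49 in TCEP livers, against 5.26, 4.65 and 6.17 in corn oil livers, a difference of 0.08 ± 0.46. The groups overlapped over nearly their whole range. Sel1l, the adaptor of the HRD1 ubiquitin ligase, differed by -0.15 ± 0.13. The 10 ER arm genes with ERSE or ERSE-II had differences from -0.15 to 0.44.

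Set side by side in the same animals, the arms did not separate the treatments. The mean of the ATF4 arm, each gene taken relative to its corn oil mean, was -0.04, 0.28 and 0.99 in TCEP livers, against 0.02, -0.60 and 0.58 in corn oil livers. The mean of the ER arm was -0.13, 0.13 and 0.03 in TCEP livers, against -0.17, 0.00 and 0.17 in corn oil livers. Only in the ATF4 arm did single animals depart by more than 0.5 from the corn oil mean, and they were in both groups. The ATF4 arm minus the ER arm averaged 0.40 ± 0.48 in TCEP livers and 0.00 ± 0.53 in corn oil livers (SD, n = 3 each), so the gap of 0.40 was smaller than the SD of either group. It was 0.10 without corn oil replicate 2, 0.12 without TCEP replicate 3 and 0.60 without corn oil replicate 3. With Asns, Phgdh, Psat1 and Fgf21 left out, a choice made after their values were seen, the ATF4 arm averaged 0.17 in TCEP livers and 0.00 in corn oil livers.

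**Figure D3:**
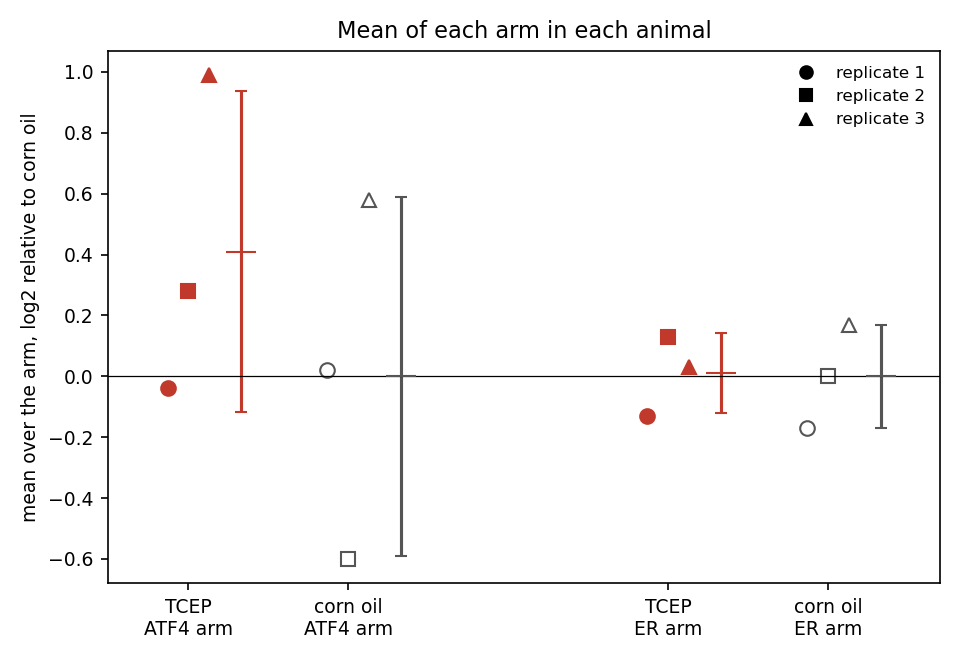
Points give, for each animal, the mean over the genes of an arm of the log2 signal relative to the corn oil mean, and the lines beside them the group mean ± SD (n = 3). In the ATF4 arm TCEP animals run from -0.04 to 0.99 and corn oil animals from -0.60 to 0.58, and in the ER chaperone arm all animals lie between -0.17 and 0.17.

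The median of the ATF4 arm rested on single animals. It was 0.01 without corn oil replicate 2, 0.13 without TCEP replicate 3 and 0.63 without corn oil replicate 3. The median of the ER arm stayed between -0.10 and 0.04 whichever array was left out.

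**Figure D4:**
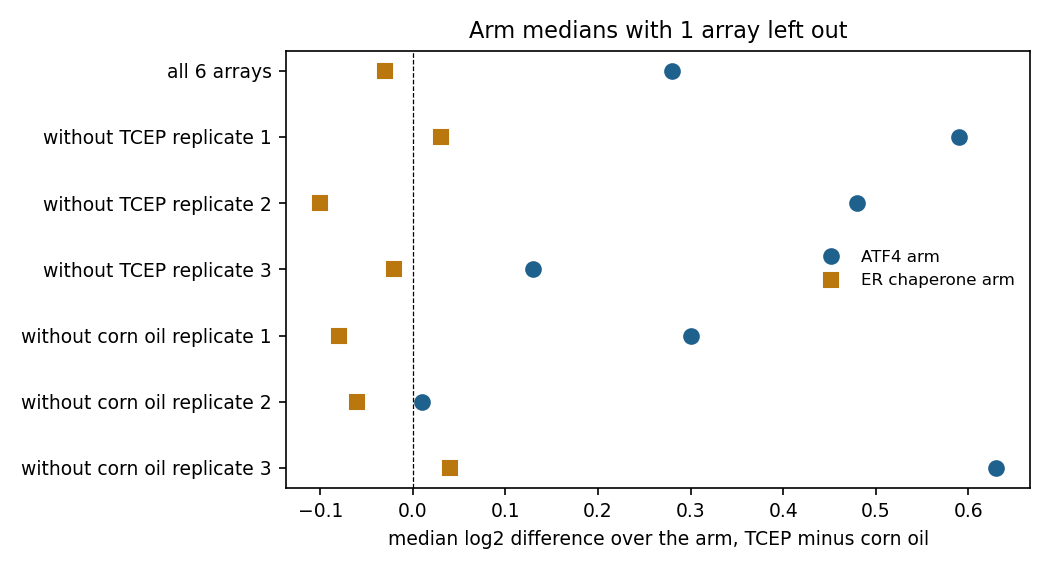
Points give the median log2 difference, TCEP minus corn oil, of each arm with all 6 arrays and with 1 array left out. The ATF4 arm median moves between 0.01 and 0.63, and the ER chaperone arm median between -0.10 and 0.04.

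The genes around the 2 arms were read from pathway lists, and in none of these lists did a gene pass the adjusted threshold in limma. Of 22 sensors and regulators of eIF2alpha, 1 was higher and 1 lower at an unadjusted p under 0.05, against 5.01% and 4.19% of all genes, and the median difference was 0.03. Eif2ak3 (PERK) differed by 0.05 ± 0.23, Ern1 (IRE1) by 0.04 ± 0.16 and Atf6 by -0.20 ± 0.15. Ppp1r15a encodes GADD34, the stress-induced subunit of the eIF2alpha phosphatase. It was at 1.03, 0.86 and 1.02 in TCEP livers, against 1.67, 1.30 and 1.33 in corn oil livers, with no overlap and a difference of -0.46 ± 0.13 (adjusted p = 0.481, limma). Oma1, the mitochondrial protease that relays mitochondrial stress to HRI, differed by 0.29 ± 0.09. Its groups did not overlap either, and its adjusted p was 0.502. The second probe of Oma1 gave 0.10, and with the mean over both probes the unadjusted p was 0.0798.

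Of 10 measured partner and downstream transcription factors, 1 was higher and 0 lower at that level, against 5.01% and 4.19% of all genes. The higher one was Nfe2l1, a factor anchored in the ER that controls proteasome genes, with a difference of 0.45 ± 0.13. Atf3, an ATF4 target, differed by -0.69 ± 0.49. Among 19 measured amino acid carriers and enzymes under ATF4, 2 were higher and 0 lower at that level, again beside 5.01% and 4.19% of all genes, with a median of 0.09. Pycr1, an enzyme of proline synthesis, was at 0.41, 1.01 and 0.95 in TCEP livers, against 0.16, -0.74 and 0.03 in corn oil livers. The groups did not overlap, the difference was 0.97 ± 0.28 (adjusted p = 0.484, limma), and its 3 probes ranged from 0.03 to 0.97. Pck2, the mitochondrial PEP carboxykinase, differed by 0.61 ± 0.18, with 3 probes from 0.35 to 0.61. None of the 12 measured aminoacyl-tRNA synthetases had an unadjusted p under 0.05, against 5.01% of all genes higher and 4.19% lower. Their median was 0.04.

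The lists of the secretory pathway had medians near 0. Of 25 further ER folding enzymes and chaperones 1 was higher and 0 lower at an unadjusted p under 0.05 (median 0.07), of 17 genes of ER-associated degradation 2 and 0 (median 0.04), and of 17 genes of ER-to-Golgi transport 1 and 0 (median 0.03), against 5.01% of all genes higher and 4.19% lower. Every TCEP animal was above every corn oil animal in 7 of the 25 folding genes, 5 of the 17 degradation genes and 2 of the 17 transport genes, against 10.3% of all genes. The reverse held in 1, 1 and 0 of them, against 7.06%. The counts of genes above moved with the scaling. They were 2, 3 and 1 after quantile normalization, against 9.28% of all genes, and 8, 5 and 5 after median centring, against 14.8%. After normexp they were 8, 5 and 3, against 10.8%. The degradation count at an unadjusted p under 0.05 was 0 without corn oil replicate 1, corn oil replicate 2 or TCEP replicate 2. It was 1 without TCEP replicate 3 and stayed 2 without corn oil replicate 3 or TCEP replicate 1. The counts of the folding and transport lists were 0 or 1 with 1 array left out. The folding, degradation and transport counts were 0, 1 and 0 after quantile normalization, 4, 4 and 2 after median centring and 6, 4 and 3 after normexp. Of all 27642 genes, 2288, 2834 and 2946 were at that level in these settings, in either direction. In the reported fit the genes at an unadjusted p under 0.05 were Sil1 (0.22 ± 0.09), an exchange factor of BiP, Edem2 (0.41 ± 0.13), a mannosidase-like protein of glycoprotein degradation, Ubxn4 (0.26 ± 0.11), an ER adaptor of the ATPase p97, and Sec31a (0.23 ± 0.09), a COPII coat subunit. The probes of Sil1 and Ubxn4 disagreed in sign, from -0.24 to 0.22 and from -0.15 to 0.26.

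Of 9 measured cell death genes of ER stress, 2 were higher and 0 lower at an unadjusted p under 0.05, against 5.01% and 4.19% of all genes, with a median of -0.04. Without TCEP replicate 1 the count was 1. Casp12, a rodent caspase linked to the ER, was at 0.07, -1.06 and -0.32 in TCEP livers, against -3.66, -3.08 and -1.15 in corn oil livers. The groups did not overlap, and corn oil replicate 3 was far above the other corn oil animals. The difference was 2.19 ± 0.67 (adjusted p = 0.495, limma), and 1.37 after normexp background correction. Casp4, a caspase of the same family that senses lipopolysaccharide, was at 0.53, 0.40 and 1.48 in TCEP livers, against -0.47, -0.66 and -0.03 in corn oil livers, a difference of 1.19 ± 0.32 (adjusted p = 0.477). Bbc3, which encodes the CHOP target PUMA, differed by 0.00 ± 0.11. In the list of mitochondrial protein stress 2 of 10 measured genes were higher and 0 lower at that level, beside the same 5.01% and 4.19%, and all 10 means were higher in TCEP, with a median of 0.14 and a range from 0.07 to 0.31. With 1 array left out, 9 to 10 means were higher. The count of 2 was 0 without corn oil replicate 2 or any 1 of the TCEP arrays, and 1 without corn oil replicate 3. It was 1 after quantile normalization or normexp, and 3 after median centring, where 2834 of all 27642 genes were at that level in either direction. The 2 genes of the reported fit were Trap1 (0.31 ± 0.12), a mitochondrial Hsp90, and Htra2 (0.26 ± 0.09), a protease of the intermembrane space. Over all genes 50.9% of means were higher in TCEP.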

How the data were processed

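Liver RNA of 6 rats was labelled with Cy3 and hybridised to one-colour Agilent arrays, per the labels' protocols. The deposited scanner files, made with Agilent Feature Extraction 10.7.1.1 per the file headers (10.7 in the submitters' processing notes), hold processed, median spot and background intensity values per spot and other columns of 0 or 1 flags. The deposited value table holds a ratio of the processed signal to the array's 75th percentile, as read from the values, with medians of 0.0955, 0.0971 and 0.0953 in the TCEP arrays and 0.1005, 0.1034 and 0.0961 in the corn oil arrays. Its direction and scale were found by setting it against the scanner signal, and no further step of the authors is recorded in the labels.

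From the scanner files, log2 processed signal minus the 75th percentile over non-control probes was computed. Outlier-flagged spots (64) were set to missing and 5 saturated spots were kept. A probe stayed in if every array of 1 or both groups had it well above background (37043). Symbols came from RefSeq accessions of build GRCr8, matched for 27460 probes, and the brightest kept probe stood for a gene. Of 51 member probes 49 were kept. Groups were compared by lmFit and eBayes in R 4.3.3 with limma 3.58.1. The test was two-sided, and p-values were adjusted by Benjamini-Hochberg over 27642 gene names, at a threshold of 0.05. The fit was run on simulated data with 200 genes changed, drawn from its own variance model and without slide effects. That checks the calculation only, not how well the model suits these arrays. Intervals are 95% intervals of the fit. Replicates were taken as animals, as the labels speak of 3 animals per group.

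The members and the gene lists were chosen with earlier results of these data known. All members were named, and from each pathway list up to 3 genes with the smallest unadjusted p under 0.05 where none passed. A few further list genes (Eif2ak3, Ern1, Atf6, Atf3, Bbc3) were named after their values were seen. Alternatives covered normalization, background (normexp, offset 50, on median signals, as no mean signal column was used), filters, probe choice, the deposited table, variance model, slide and replicate blocks, flagged spots and each array left out.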

Additional observations from a re-analysis of the deposited data

How the results depend on the processing

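No member passed the adjusted threshold under any of the 17 alternatives run, nor did any other gene. Of the 30 members, 0 had an unadjusted p under 0.05 in the reported fit, beside 2543 of all 27642 genes in either direction. The member count was 1 after median centring (2834 of all genes) and with slide as a random block (3043). It was also 1 with the filter on all 6 arrays (2468 of 25491 genes), and it was 2 after normexp background correction (2946 of 27642). No slide held both groups, so the slide block could not adjust for slide. The correlation within slides that it estimated was -0.062. Leaving out 1 array gave 0 to 2 members, beside 1605 to 3213 of all genes. With replicate number as a block the member count was 2 (Asns and Mthfd2), beside 1901 of all 27642 genes. Over all genes, the deviations of same-numbered arrays had correlations of -0.05, -0.16 and -0.02, and those of the other pairs ran from -0.07 to 0.12. These values cannot settle whether same-numbered animals were paired, since a pairing could touch only some genes. The block changed no adjusted call. Members whose groups did not overlap, counted in both directions, numbered 1, but 0 after normexp, and 1 to 6 with 1 array left out. There 2 animals against 3 separate more easily, with 13.5% to 17.2% of all genes higher and 10.4% to 15.1% lower. Median centring moved the median of all genes to 0.06, and the unfiltered fit moved it to -0.07. Median centring put 62.1% of all means higher in TCEP, and the unfiltered fit 40.0%. The median of the ATF4 arm was 0.01 to 0.63, that of the ER chaperone arm -0.10 to 0.04, that of all members -0.04 to 0.14, and the arm difference 0.10 to 0.60 with 1 array left out.

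Of the 43 genes named by rule 27 kept their direction in every alternative, and the other 16 reversed in at least 1; the cause was not tested. After median centring Calr was at 0.03, Creld2 at 0.00, Hspa5 at 0.03 and Hyou1 at 0.04. After normexp Aldh18a1 was at -0.04, Hyou1 at 0.01 and Nupr1 at 0.05. After quantile normalization Canx was at -0.01 and Herpud1 at -0.02, and with the mean over probes Canx was at -0.09 and Sil1 at -0.01. With 1 array left out the difference ran, for Aldh18a1 from -0.08 to 0.08, Calr from -0.09 to 0.07, Canx from -0.07 to 0.14, Chac1 from -0.46 to 0.02, Creld2 from -0.26 to 0.14, Dnajb11 from -0.07 to 0.12, Fgf21 from -0.96 to 1.15, Herpud1 from -0.28 to 0.48, Hspa5 from -0.09 to 0.08, Hyou1 from -0.11 to 0.05, Nupr1 from -0.43 to 0.37, Pdia4 from -0.09 to 0.14, Pdia6 from -0.15 to 0.02, Psat1 from -0.10 to 1.51 and Sdf2l1 from -0.04 to 0.26.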
